A study of Mus musculus with 2 samples.

Results

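The 8 genes described here, Mbp, Mog, Mag, Mobp, Mal, Cnp, Bcas1 and Enpp6, encode proteins of myelin or of the cells that make it. They were taken as a list by name, without use of their measured levels, and all 8 were present in both single-cell count tables, among 23906 genes with counts in the brain and 23156 in the lung. The levels of these genes were followed from oligodendrocyte precursor cells (OPCs) to oligodendrocytes in the brain, in brain cells of other kinds, and in the Sox10-positive cells of the lung.

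The study profiled cells that carried green fluorescent protein under the regulatory elements of Nestin (Nes), a neural stem cell gene, in adult transgenic mice. One library was made from brain and 1 from lung. Per the labels the mice were C57BL/6 animals of about 6 weeks, whereas the methods of the study describe transgenic lines kept on CD1 or CD1/C3H stock. No treatment or mutation was applied, both libraries share the transgene, and the number of animals pooled in each is not given in the sources used here. GFP-positive cells were sorted after trypsin digestion and their RNA was captured at the 3′ end on the 10x Chromium platform, so that only cells in which the transgene was on, or in which GFP persisted, could be seen. With 1 library per tissue (n = 1) no difference could be tested against replicate error, and every 95% interval given here covers counting error only.

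In the central nervous system, OPCs leave the cell cycle, pass through a committed stage marked by the receptor gene Gpr17, and become oligodendrocytes, which wrap axons in a compacted membrane sheath. Mbp, Mobp and Mal encode proteins of compact myelin or of the lipid domains that feed it. Mog lies on the outermost lamella, Mag lies on the innermost membrane facing the axon, and Cnp encodes an enzyme of the cytoplasm-filled channels. Bcas1 and Enpp6 mark newly formed oligodendrocytes. Schwann cells, the Sox10-positive glia of peripheral nerve, share some of these genes with oligodendrocytes.

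The promoters of these genes are shown because lineage factors such as Sox10 are known to act on myelin genes, and because the genes differed in when they were expressed. Sequences from RefSeq (GRCm38.p6) were used for 6 of the members, and Mbp and Bcas1 were not among them. The stretch upstream of every annotated exon is printed for 4 of the 6, 5′ to 3′ on the gene's own strand. Capitals mark matches to ACAAAG or ACAATG, which are core forms of the site of SOX-family factors such as Sox10, and to CTGGCAC, a core form of the site of Myrf, the myelin regulatory factor; both strands were searched, so that ACAAAG on the other strand reads CTTTGT.
Mobp (chr9:120149492-120149706, plus strand): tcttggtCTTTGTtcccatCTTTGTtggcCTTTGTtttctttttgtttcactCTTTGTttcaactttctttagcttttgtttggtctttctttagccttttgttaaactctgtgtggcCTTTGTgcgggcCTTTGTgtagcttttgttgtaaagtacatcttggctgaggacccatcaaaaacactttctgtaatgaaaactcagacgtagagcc
Cnp (chr11:100574689-100574903, plus strand): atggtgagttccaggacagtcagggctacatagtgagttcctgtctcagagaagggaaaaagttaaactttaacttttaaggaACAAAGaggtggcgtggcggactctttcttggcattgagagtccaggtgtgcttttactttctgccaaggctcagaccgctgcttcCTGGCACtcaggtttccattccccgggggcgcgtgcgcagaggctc
Enpp6 (chr8:46986637-46986886, plus strand): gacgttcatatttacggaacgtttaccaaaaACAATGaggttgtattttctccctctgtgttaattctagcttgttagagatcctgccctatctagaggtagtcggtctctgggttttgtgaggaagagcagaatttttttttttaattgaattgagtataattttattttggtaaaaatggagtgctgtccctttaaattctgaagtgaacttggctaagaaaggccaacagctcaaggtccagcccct
Mal (chr2:127656696-127656945, minus strand): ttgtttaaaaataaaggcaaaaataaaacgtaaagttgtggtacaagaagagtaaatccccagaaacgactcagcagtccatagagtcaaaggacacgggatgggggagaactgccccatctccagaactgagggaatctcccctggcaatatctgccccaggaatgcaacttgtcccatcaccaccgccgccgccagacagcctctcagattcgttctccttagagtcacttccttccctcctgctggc

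The Mobp stretch held 6 copies of ACAAAG, the Cnp stretch held 1 copy each of ACAAAG and CTGGCAC, the Enpp6 stretch held 1 ACAATG, and the Mal stretch held none of these motifs. Among all 32851 RefSeq promoters of 300 bases, 18.7% held ACAAAG, 12.6% held ACAATG, 5.01% held CTGGCAC and 16.3% held the E-box CAGCTG. Over the 8 listed starts of the 6 members, in the same window, ACAAAG was found at 4 starts (of Cnp, Mag and Mobp), CTGGCAC at 3 (of Cnp and Mag), ACAATG at 1 (of Enpp6) and CAGCTG at 0. Starts of 1 gene can overlap, as 2 of the 3 of Mag do. These matches are descriptions of letters and not of binding.

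The brain library held 4640 cell barcodes, of which 4151 with more than 200 and fewer than 4000 genes and under 40% mitochondrial UMIs were kept (median 4209 UMIs, 19518081 in all). The lung library held 5981, of which 5608 were kept (median 5585 UMIs, 31797069 in all). The upper limit of 4000 genes removed 418 brain and 307 lung barcodes, and 11 kept barcodes had the same sequence in both libraries. Cells were assigned by gates on a few marker genes. The OPC gate (at least 2 UMIs of Pdgfra and Cspg4 with at least 1 of Olig1 and Olig2) held 116 cells, and the oligodendrocyte gate (at least 3 UMIs of Mog, Mag and Mobp) held 165. A further 70 cells passed neither but had at least 2 UMIs of Gpr17 with at least 1 of Olig1 and Olig2 and are called the Gpr17 gate. The 2968 cells that passed exactly 1 gate for another brain class and none of these lineage gates served as the reference for free RNA, and 413 cells that passed several such gates were left out of it. One cell passed both the OPC and the oligodendrocyte gate.

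The myelin genes were higher at each later stage of the lineage in sum, but their courses differed. Levels are in CPM, the UMIs of a gene over the summed UMIs of a group on the usual counts-per-million scale, and since 3′ counting carries no length correction the genes are not ranked against each other. In the OPC gate the 8 genes made up 0.165% of all UMIs, in the Gpr17 gate 0.774% and in the oligodendrocyte gate 2.09%, against 0.0275% in the reference cells. Relative to OPCs, the summed level was 4.68-fold (4.34 to 5.04) higher in the Gpr17 gate and 12.6-fold (11.8 to 13.5) higher in the oligodendrocyte gate. With the OPC gate set at 4 UMIs the second ratio was 19.5. Of the 116 OPC-gate cells, 29 also passed a reference gate, 19 of them that of activated progenitors. Median depth was 4789 UMIs per cell in the OPC gate, 5144 in the Gpr17 gate and 6663 in the oligodendrocyte gate, and its part in these values was not tested.

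Between the OPC and oligodendrocyte gates, 7 of the 8 genes were at least 4-fold higher in oligodendrocytes, where 4.77% of the 11085 genes with at least 10 UMIs over both groups were. Mog, Mag and Mobp themselves defined that gate, so their difference in it is not a finding, and without them 4 of 5 were higher. Mal, counted among these 4, and Mog and Mag reached 10 UMIs only through the oligodendrocyte gates, the second one below included. Their calls are therefore in part set by that filter. Because Mog, Mag and Mobp chose the first gate, a second gate was set on 6 oligodendrocyte genes that are not members (at least 3 UMIs of Ermn, Opalin, Aspa, Hapln2, Gjb1 and Gpr37). It held 49 cells outside the OPC gate, and in them 6 of the 8 genes were at least 4-fold higher than in OPCs against 5.62% of 9800 genes, with the summed level 18.9-fold (17.6 to 20.2) higher. The gene past 4-fold in the first gate and not in the second was Enpp6. Of the 49 cells, 40 had at least 5 of the 8 genes detected and 2 had none of them.

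Because the oligodendrocyte gate held more than one kind of cell, it was split after its values had been seen. In 52 of the 165 cells Gpr17 was present at 2 or more UMIs and the 6 non-member genes summed to under 3; these are called Gpr17-positive oligodendrocytes. In 39 cells the 6 genes summed to 3 or more and Gpr17 was under 2, and these are called mature-gene oligodendrocytes. Only 2 cells met both rules and 72 met neither. Median depth was 10750.5 UMIs in the first set and 12372 in the second. The 8 genes made up 1.61% of UMIs in the Gpr17-positive and 3.49% in the mature-gene oligodendrocytes. The OPC gate was split likewise into 39 cells with fewer than 2 Gpr17 UMIs (median 2692 UMIs) and 77 cells with 2 or more (median 6134).

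**Figure D1:**
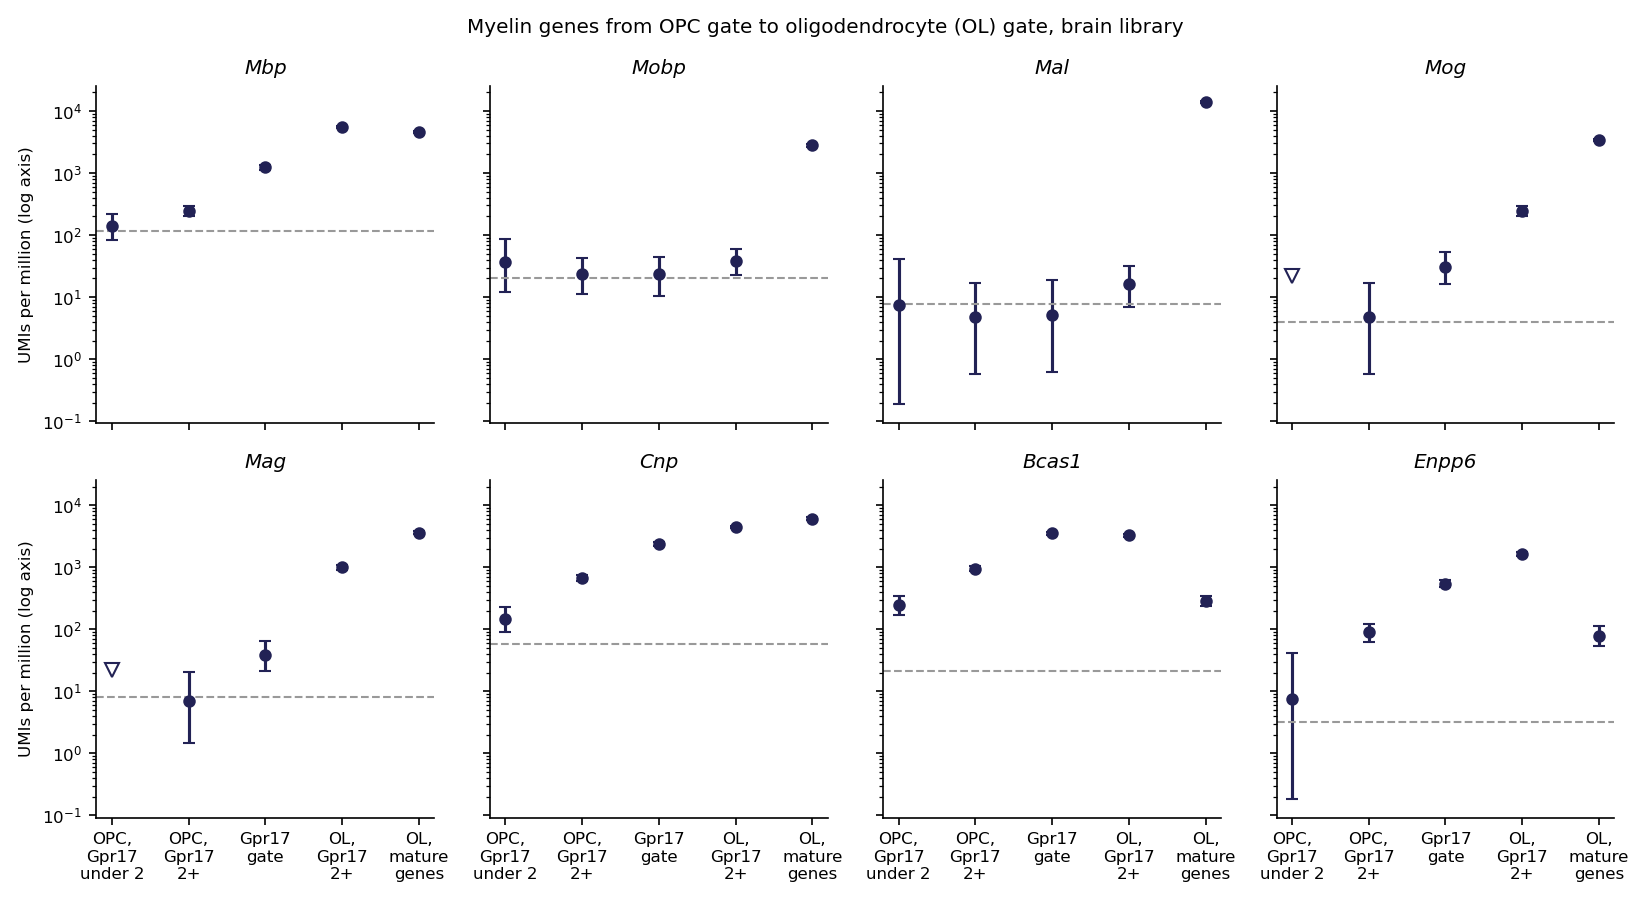
Level of each of the 8 myelin genes (CPM, log axis) in 5 groups of brain cells from OPCs with little Gpr17 to mature-gene oligodendrocytes. Points are the summed level of 1 library with 95% Poisson intervals, open triangles mark the limit of 3 counts where no UMI was found, and the dashed line is the level in reference cells other than endothelial. Mbp and Cnp climb early and level off, Bcas1 and Enpp6 peak and fall, and Mal and Mobp lie near the dashed line until the last group.

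Mbp encodes myelin basic protein, which zips the cytoplasmic faces of the membrane together and whose mRNA is known to be carried into the cell's processes. The gene spans 110.5 kb of the plus strand (chr18:82475146-82585637, GRCm38, as are all gene positions below), with the pseudogene Rpl21-ps8 inside it. Its level was 141 (84.7 to 220) in OPCs with little Gpr17, 247 (202 to 299) in OPCs with Gpr17, 1241 (1133 to 1357) in the Gpr17 gate, 5493 (5290 to 5702) in Gpr17-positive oligodendrocytes and 4588 (4381 to 4802) in mature-gene oligodendrocytes. Mbp was therefore no higher in the mature-gene cells than in the Gpr17-positive ones, with a ratio of 0.835 (0.787 to 0.886). A UMI of it was found in 35.3% of OPCs, 77.1% of the Gpr17 gate and in all 39 mature-gene oligodendrocytes, where the median cell had 47.0 UMIs and the highest 109. The share in the reference cells was 25.2%. Thinned to 1000 UMIs per cell, 14.3% of OPCs and 9.40% of non-endothelial reference cells would carry a UMI, so that the shares in these groups lay closer together than their levels.

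Mobp encodes another small basic protein of compact myelin (chr9:120149707-120181484, plus strand, overlapping Gm38642). It showed a different course, with 37.0 (12 to 86.4) and 23.5 (11.3 to 43.3) CPM in the OPC groups, 23.2 (10.6 to 44.1) in the Gpr17 gate and 38.0 (22.9 to 59.3) in Gpr17-positive oligodendrocytes. These levels were close to the 20.4 (17.9 to 23.0) of the non-endothelial reference cells. In mature-gene oligodendrocytes it reached 2798 (2637 to 2966), 73.6-fold (46.9 to 123) above the Gpr17-positive cells, and 97.4% of cells had a UMI against 23.1%.

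Mal encodes a proteolipid of the membrane domains from which myelin is built (chr2:127633226-127656695, minus strand). It gave the steepest step of the 8. Only 3 UMIs were found in the 116 OPCs (5.36 CPM, 1.10 to 15.7), 2 in the Gpr17 gate (5.16, 0.625 to 18.6) and 8 in Gpr17-positive oligodendrocytes (16.0, 6.91 to 31.5), while non-endothelial reference cells had 7.84 (6.37 to 9.55). Mature-gene oligodendrocytes had 13952 (13590 to 14322), an 872-fold (442 to 2021) difference, with a median of 155 UMIs per cell and 392 in the highest cell. In the gate that used no member, Mal reached 12018 (11713 to 12330).

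Mog, which encodes a glycoprotein of the outer myelin surface (chr17:37010743-37023398, minus strand, overlapping Gm22388), was found at 0 UMIs in OPCs with little Gpr17 and 3.57 CPM (0.432 to 12.9) in all OPCs. It measured 31.0 (16.0 to 54.1) in the Gpr17 gate, 244 (203 to 291) in Gpr17-positive oligodendrocytes and 3414 (3236 to 3599) in mature-gene oligodendrocytes, the last step being 14.0-fold (11.6 to 17.0). Mag, the adhesion molecule on the axonal side (chr7:30899176-30914873, minus strand), followed another course. It was 5.36 (1.10 to 15.7) in OPCs and 38.7 (21.7 to 63.8) in the Gpr17 gate, and it already stood at 1006 (920 to 1098) in Gpr17-positive oligodendrocytes and at 3632 (3448 to 3823) in mature-gene oligodendrocytes. The last step for Mag was thus 3.61-fold (3.26 to 4.0). Mag gave 78.1% of the gate-gene UMIs of the Gpr17-positive oligodendrocytes, so that its level in them is in part set by the gate. Since Gpr17-gate cells by definition held fewer than 3 UMIs of Mog, Mag and Mobp, and Gpr17-positive oligodendrocytes at least 3, the step between those groups is partly set by the gates.

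Cnp, which encodes a phosphodiesterase of non-compact myelin (chr11:100574904-100591729, plus strand, overlapping Dnajc7), was higher already within the OPC gate. It was at 148 (90.4 to 229) in OPCs with little Gpr17 and at 668 (593 to 751) in OPCs with Gpr17, a 4.51-fold (2.87 to 7.50) difference. It then measured 2353 (2203 to 2511) in the Gpr17 gate, 4413 (4231 to 4601) in Gpr17-positive and 6100 (5861 to 6346) in mature-gene oligodendrocytes. The last step was only 1.38-fold (1.30 to 1.46). The strand setting of the authors' counting is not given in the sources used here, and if strand was not used, reads of Cnp and Dnajc7 in their overlap cannot be told apart; the same holds for Bcas1 and its antisense genes Bcas1os1 and Bcas1os2.

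Bcas1 and Enpp6 were highest in the middle of the sequence. Bcas1, which encodes a cytoplasmic protein of early myelinating cells (chr2:170346991-170427845, minus strand), measured 244 (168 to 343) and 950.5 (860 to 1048) in the OPC groups. It stood at 3506 (3322 to 3698) in the Gpr17 gate and 3287 (3130 to 3450) in Gpr17-positive oligodendrocytes, and at 288 (238 to 345) in mature-gene oligodendrocytes, 11.4-fold (9.45 to 13.9) below the Gpr17-positive ones. Enpp6, which encodes a choline phosphodiesterase (chr8:46986887-47096762, plus strand, overlapping 4930579M01Rik and Gm45600), measured 7.40 (0.187 to 41.2) and 89.4 (63.3 to 123) in the OPC groups and 544 (473 to 623) in the Gpr17 gate. It was highest in Gpr17-positive oligodendrocytes, at 1632 (1522 to 1748), and was 79.4 (54.3 to 112) in mature-gene oligodendrocytes, a 20.5-fold (14.4 to 30.2) difference. The order of the peaks therefore differed, with Bcas1 about as high in the Gpr17 gate as in Gpr17-positive oligodendrocytes (ratio of the latter 0.938, 0.872 to 1.01) and Enpp6 3.00-fold (2.57 to 3.50) higher in the latter.

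Both genes were detected in most cells at their peak, Bcas1 in 97.1% of the Gpr17 gate and Enpp6 in 94.2% of Gpr17-positive oligodendrocytes. In the mature-gene cells Bcas1 was still found in 89.7% but at a median of 3.00 UMIs in deep cells; thinned to 1000 UMIs the share was 26.4% against 90.4% in Gpr17-positive cells. For Enpp6 the thinned shares were 5.75% and 74.3%. In non-endothelial reference cells, with a median of 4270 UMIs, 8.04% had a Bcas1 UMI and 1.49% an Enpp6 UMI. Over the whole oligodendrocyte gate these courses were partly hidden. Bcas1 averaged 1586 (1515 to 1659) there, 2.03-fold (1.83 to 2.26) above OPCs, and Enpp6 737 (689 to 787), whereas in the gate that used no member Bcas1 was 0.310 (0.250 to 0.380) of its OPC level and Enpp6 was 1.18 (0.737 to 1.88) of it.

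Between the OPC and the Gpr17 gates, 6 of the 7 members with at least 10 UMIs were 4-fold or more higher in the Gpr17 gate, against 1.18% of 9567 genes. Mog and Mag reached 10 UMIs only through the Gpr17 gate, and without these and Mobp, whose sum the gates limit, 4 of the 4 members tested were higher. Their ratios ran from 4.34 (3.80 to 4.95) for Cnp and 4.49 (4.03 to 5.02) for Bcas1 over 5.61 (4.59 to 6.89) for Mbp to 7.82 (5.54 to 11.3) for Enpp6, with Mag at 7.23 (2.04 to 38.9) and Mog at 8.67 (1.93 to 79.8) on few UMIs. Mobp was the exception at 0.867 (0.335 to 2.11), and Mal had too few UMIs. Between Gpr17-positive and mature-gene oligodendrocytes, 3 members (Mobp, Mal and Mog) were higher by 4-fold or more against 6.37% of 8119 genes, and 2 (Bcas1 and Enpp6) were lower against 11.1%. The split used no member, although the gate that holds both sets used Mog, Mag and Mobp. Without these, 1 of 5 members was higher and 2 were lower. The higher one was Mal, which reached 10 UMIs only through the mature-gene oligodendrocytes. Gpr17-positive and mature-gene oligodendrocytes had mitochondrial shares of UMIs of 3.27% and 4.85%, ribosomal-protein shares of 6.70% and 3.24% and Malat1 shares of 6.73% and 10.6%; the part of these in the differences was not tested.

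**Figure D2:**
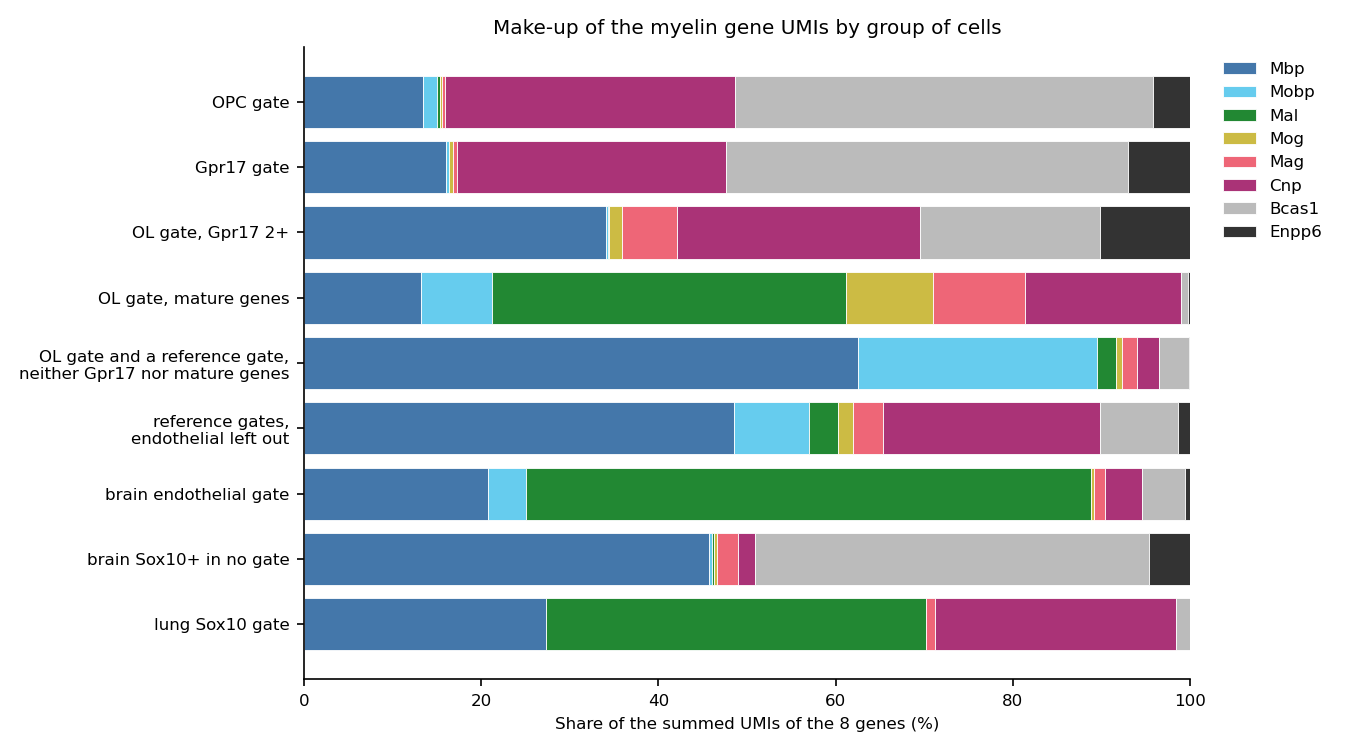
Make-up of the UMIs of the 8 myelin genes, as a percentage of their sum, in 9 groups of cells. The stacked bars show Bcas1 and Cnp as the bulk in OPCs and the Gpr17 gate, Mal as the largest share in mature-gene oligodendrocytes, and Mbp with Mobp (62.6% and 27.0%) as nearly all of the sum in the 49 oligodendrocyte-gate cells that passed a reference gate and were neither Gpr17-positive nor mature-gene.

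Other genes of myelin and of the oligodendrocyte lineage were counted from fixed lists. Of 16 other myelin genes, 12 were at least 4-fold higher in the oligodendrocyte gate than in OPCs, where 4.77% of all genes tested were, as were 8 of 13 genes of myelin lipid and metabolite supply and 3 of 12 regulators, while 4 of the 6 OPC genes that no gate used were lower by as much, against 7.48% of all genes tested. Cldn11, the tight junction claudin of myelin, went from 39.3 in OPCs to 2366 in the oligodendrocyte gate (60.2-fold). Among the regulators the Wnt effector Tcf7l2 was 4.25-fold higher, whereas Olig1, which the OPC gate used, was at a ratio of 0.305 and did not reach a 4-fold fall. Between Gpr17-positive and mature-gene oligodendrocytes, 11 of the 16 other myelin genes were higher and 2 lower by 4-fold or more. Of the 8119 genes tested in this contrast, 6.37% were higher and 11.1% lower by as much. Of the 16, 5 (Ermn, Opalin, Hapln2, Gjb1 and Gpr37) also defined the mature-gene cells, and of the 11 that did not, 6 were higher and 2 lower. The early genes went the other way, 6 of 7 being lower when Gpr17, which the split used, is left out, among them the kinase gene Fyn by 53.9-fold and the sialidase gene Neu4 by 110-fold. The median log2 ratio of oligodendrocyte to OPC gate was 3.40 over the 5 members that no gate used and -0.33 over all genes tested.

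Likeness of expression was scored for each member against 12628 genes as Pearson's r of log2(CPM + 10) over the 11 brain gates, a description over points that share 1 library. One of the gates, that of fibroblasts, held only 3 cells and weighed as much as the others; without it 16 of the 24 pairs below stayed among the nearest 3 of their member, with every pair at 0.886 or above. The 3 genes nearest to Mbp were Tmem88b and Cldn11 (both 0.935) and Gm15440 (0.929), and those nearest to Mobp were Adamts4 (0.886), Spock3 (0.883) and Insc (0.881). For Mal they were Ndrg1 (0.941), Dock5 (0.906) and Grb14 (0.892), and for Mog they were Nfe2l3 (0.995), Cdk18 (0.984) and Wnt3 (0.982). Mag lay nearest to Gm15440 (0.954), Cdk18 (0.929) and Tmem151a (0.919), of which 1 stayed among its nearest 3 without the fibroblast gate. Cnp lay nearest to Sirt2 (0.966), Aatk (0.962) and Lgi3 (0.953). Bcas1 lay nearest to Susd4 (0.976), Opcml (0.971) and 1700040N02Rik (0.969), and Enpp6 to Fa2h (0.984), which encodes the enzyme that hydroxylates myelin lipids, Plxnb3 (0.980) and Map6d1 (0.979).

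The 72 oligodendrocyte-gate cells that were neither Gpr17-positive nor mature-gene fell into 2 kinds, separated after the values had been seen by whether they passed a gate for another brain class. The 49 that did (median 3978 UMIs) entered the gate almost wholly through Mobp, which gave 91.9% of their Mog, Mag and Mobp UMIs, and in 39 of them Mobp was the only one of these 3 genes present. Their levels were 2191 (1998 to 2397) for Mbp and 945 (820 to 1084) for Mobp, but 88.0 (53.0 to 137) for Cnp, 74.1 (42.4 to 120) for Mal and 60.2 (32.1 to 103) for Mag. Set against the mature-gene oligodendrocytes, Mbp stood at 0.478 (0.431 to 0.529) and Mobp at 0.338 (0.289 to 0.392) of the level, while Cnp stood at 0.0144 (0.00867 to 0.0226), Mal at 0.00531 and Mog at 0.00678. Against the other non-endothelial reference cells, Mbp was 18.9-fold (17.0 to 20.9) and Mobp 46.4-fold (38.4 to 56.0) higher, Mal 9.45-fold (5.20 to 16.1), Mag 7.38-fold and Cnp 1.51-fold (0.901 to 2.37). Mobp was used in their selection and Mbp was not.

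Over the whole gate, 59 of the 165 cells passed a reference gate as well, 28 of them the neuroblast and 19 the astroglial gate. In 47 of the 165 cells Mobp was the only gate gene found. The remaining 23 cells of the 72 passed no other gate and were shallow (median 1140 UMIs), with a Malat1 share of 20.8%. They had 10016 CPM of Mbp, 2346 of Bcas1, 2008 of Cnp, 1805 of Mobp and 1714 of Mag, but 45.1 of Mal. Just inside the gate stood 31 cells with a sum of 3 gate-gene UMIs and just outside it 108 cells with a sum of 2. Their levels, in that order, were 2622 and 1399 for Mbp, 494 and 292 for Mobp, 32.4 and 43.5 for Mal, 48.6 and 49.8 for Mog, 210.4 and 106 for Mag, 526 and 425 for Cnp, 939 and 877 for Bcas1 and 235 and 151 for Enpp6.

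In brain cells that should not make myelin, all 8 genes were found at low levels. Relative to the oligodendrocyte gate, the summed level in the reference cells was 0.0132 (0.0127 to 0.0137). For the genes that the gates did not use, the ratio was 0.0250 for Mbp, 0.0140 for Bcas1, 0.0134 for Cnp, 0.00848 for Mal and 0.00446 for Enpp6. Mobp (0.0166), Mag (0.00402) and Mog (0.00285) were required in the oligodendrocyte gate and limited in the reference cells, so that their ratios are in part set by the gates. Mbp lay between 67.6 CPM in the ependymal gate and 148 in the mural gate, with the neuroblast gate at 108 and the astroglial gate at 132, except in the microglia gate. There it was 421 (319 to 544) in 36 cells, 3.18-fold (2.36 to 4.22) above the astroglial level, and Mag was 58.0, 6.11-fold above the astroglial level. Cnp was 38.8 in the neuroblast and 128 in the astroglial gate, a 3.29-fold (2.81 to 3.84) difference between classes of like depth (medians 4517 and 3849.5 UMIs). The fibroblast gate held only 3 cells and is not described.

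Mal was the exception among the reference cells, with a far higher level in the brain endothelial gate than in the other reference cells. The source of the Mal UMIs in that gate was not tested. In the endothelial gate (283 cells, median 3705 UMIs) 475 Mal UMIs gave 447 CPM (408 to 489), 57.0-fold (45.8 to 71.5) above the other reference cells and 0.0903 of the level in the oligodendrocyte gate. A Mal UMI was found in 62.9% of endothelial cells against 3.31% of other reference cells, and in 30.8% against 0.890% when thinned to 1000 UMIs. The other 7 members were at most 1.6 times their level in other reference cells. Mbp was at 1.25 (1.06 to 1.48) of the other reference level, Mag at 1.15, Enpp6 at 1.16, Mobp at 1.48, Bcas1 at 1.6, Mog at 0.475 and Cnp at 0.499 (0.336 to 0.714), and Mal alone made up 63.8% of the endothelial UMIs of the 8 genes. In 30 endothelial cells with the arterial genes Gkn3 or Bmx, chosen after the values had been seen, Mal was 802 (653 to 976) against 399.6 (360 to 442) in the other 253, a ratio of 2.01 (1.59 to 2.51). The ependymal gate had 105 CPM (57.5 to 177), from 5 of 27 cells, and no Mal UMI was found in the 36 microglia-gate cells.

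The pattern was not shared by endothelial cells of the lung. There 4 of 560 cells had a Mal UMI, and the level was 1.27 CPM, so that brain endothelial cells were 351-fold (136 to 1293) higher. The median depths were 3705 and 5309 UMIs, and tissue and library cannot be told apart in this contrast.

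**Figure D3:**
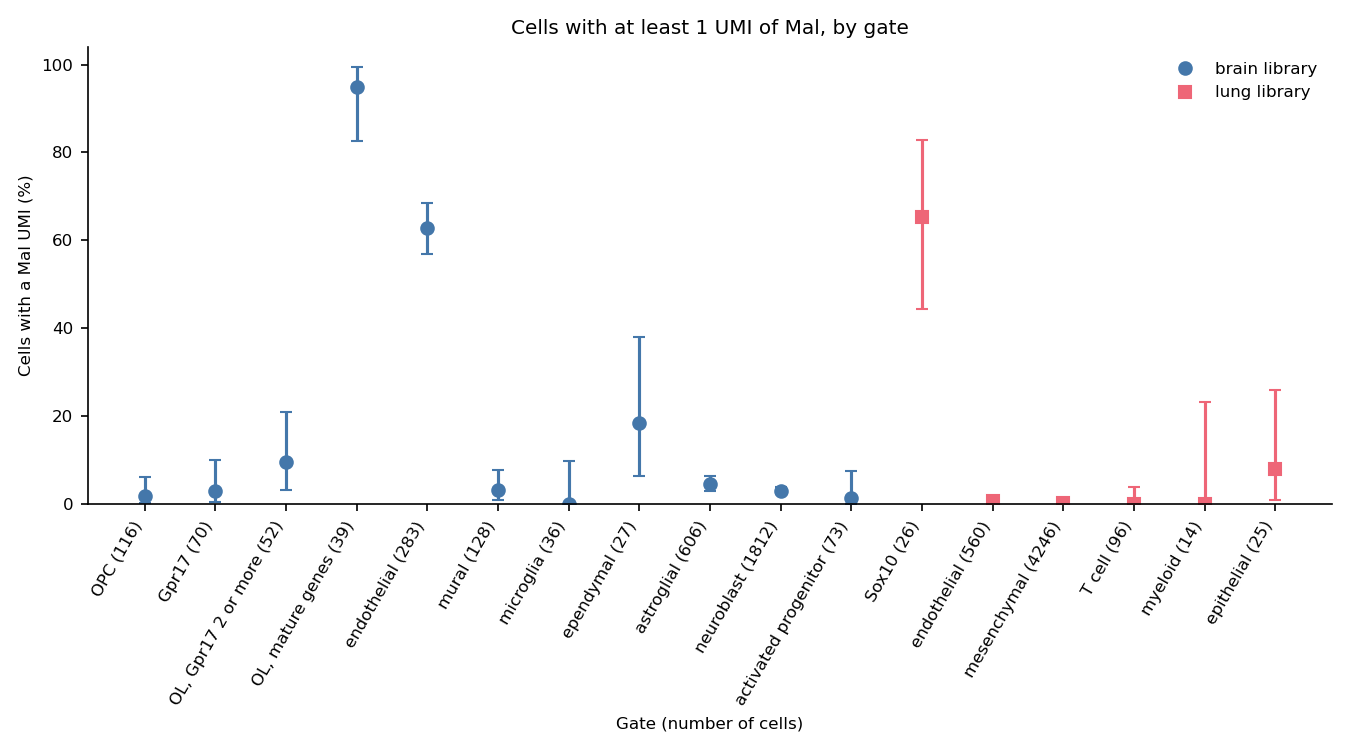
Percentage of cells with a Mal UMI in each gate, with exact 95% intervals, for brain (circles) and lung (squares). Brain endothelial cells (62.9%) and lung Sox10-positive cells (65.4%) stand apart from the other non-oligodendrocyte gates, and lung endothelial cells lie near 0.

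Cells that passed no gate included a further set with myelin genes. After the values had been seen, 53 ungated cells with a Sox10 UMI were set against 365 ungated cells without one. The 53 were shallow (median 1698 UMIs) with a Malat1 share of 19.7%, against 5.37% in the Gpr17 gate. They had 4497 CPM of Mbp (4110 to 4910), 4370 of Bcas1 (3989 to 4778) and 452 of Enpp6 (336 to 596), but only 190 of Cnp (118 to 290). Compared with the Gpr17 gate, Mbp was 3.62-fold (3.19 to 4.12) higher and Mag 6.08-fold (3.10 to 12.3) higher, Bcas1 was at 1.25 (1.12 to 1.38) and Enpp6 at 0.831 (0.598 to 1.14), and Cnp was 12.4-fold lower. Mobp and Mog, on 3 and 4 UMIs, were at 1.17 each, and Mal had 2 UMIs in either group. Of the 7 members with enough UMIs, 1 (Cnp) was lower by 4-fold or more, against 9.77% of 7096 genes, and 1 (Mag) was higher, against 3.55%. Both groups were held to under 3 UMIs of Mog, Mag and Mobp, and without these genes 0 of 4 members were higher by 4-fold and 1 was lower. The ribosomal-protein share was 2.36% in these cells and 8.40% in the Gpr17 gate; the part of depth, Malat1 and ribosomal-protein share in this difference was not tested. In the 365 cells without Sox10, Mbp was 633, Bcas1 502 and Cnp 98.0.

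**Figure D4:**
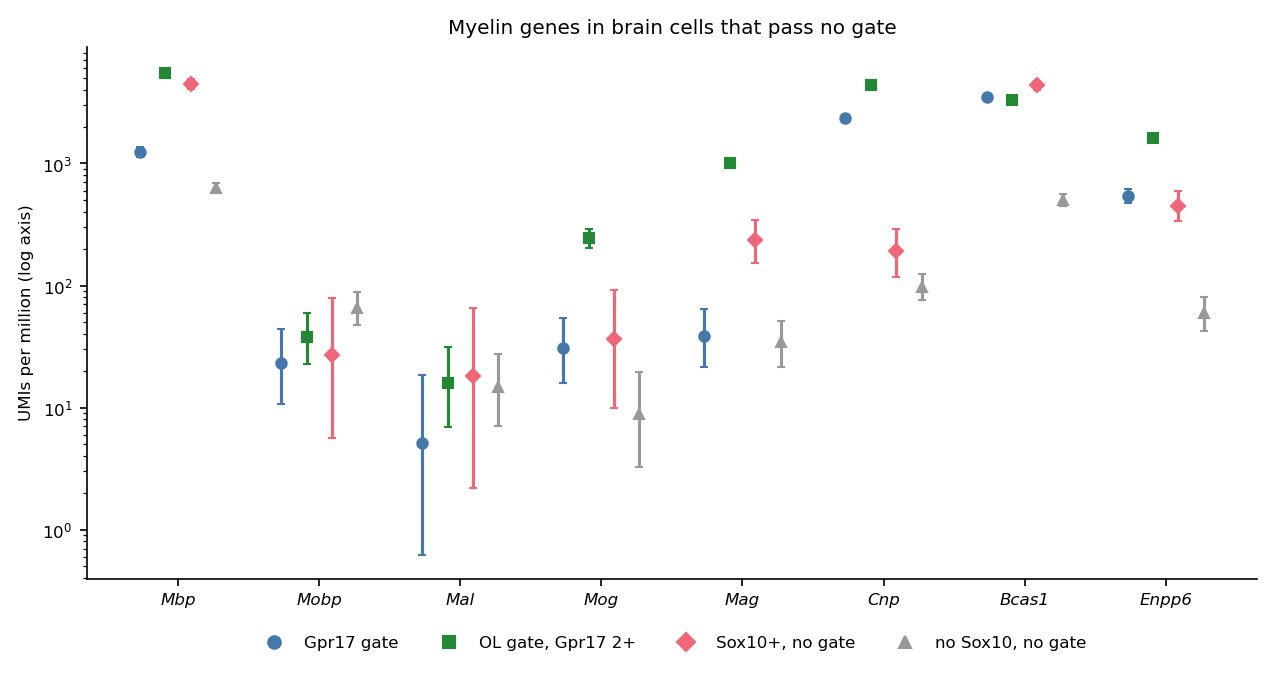
Level of the 8 myelin genes (CPM, log axis, 95% Poisson intervals) in the Gpr17 gate, Gpr17-positive oligodendrocytes, ungated cells with Sox10 and ungated cells without it. Ungated Sox10-positive cells lie with the 2 lineage groups for Mbp, Bcas1 and Enpp6 and far below them for Cnp (190 against 2353 and 4413).

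In the lung, 26 of 5608 cells had a Sox10 UMI and passed the Sox10 gate. The genes that define Schwann cells were present in them. Foxd3 was found in 24 of the 26 cells and Gfra3 in 21, and beside the gate gene Sox10 all 11 other genes of the Schwann cell list were at least 4-fold above the other lung cells. Prx and Ncmap, genes of myelinating Schwann cells, were at 0.

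The 26 cells held 3 of the 8 myelin genes at clear levels. Mal gave 85 UMIs (633 CPM, 506 to 783) in 17 cells, with a median of 2.50 and a highest value of 17 UMIs. Mbp gave 54 UMIs (402, 302 to 525) in 15 cells, and Cnp likewise 54 UMIs in 18 cells. Mag was found as 2 UMIs and Bcas1 as 3, and Mobp, Mog and Enpp6 were not found, which allows a level of up to 22.4 CPM over the 134216 UMIs of the group. Mog and Mobp are known as genes of central rather than peripheral myelin, and they were not detectable here at this depth.

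Compared with the other 5582 lung cells, Mal was 378-fold (265 to 544) higher, Mbp 265-fold (177 to 400), Mag 21.4-fold (2.44 to 87.2), Cnp 19.97-fold (14.8 to 26.4) and Bcas1 5.66-fold (1.15 to 16.9). These 5 were all past 4-fold among the 7 members with enough UMIs, against 5.81% of 16483 genes, and the sum of the 8 was 49.96-fold (42.6 to 58.3) higher. Of the 5, Mag and Bcas1 rest on 2 and 3 UMIs in the Sox10-positive cells. Mag was 14.9 CPM (1.80 to 53.8) in them and 33.6 (6.92 to 98.1), on 3 UMIs, in the 14 cells of the myeloid gate. Median depth was 5015 UMIs in the Sox10-positive and 5586.5 in the other cells. The other cells were not alike, since 13 of their 48 Mbp UMIs lay in the T cell gate, 9 in the myeloid, 8 in the epithelial gate and 13 in cells of no gate. In the 4806 endothelial and mesenchymal cells, by contrast, Mbp was found as 2 UMIs and Mal as 12. Against these cells alone the ratio was 5827 (1537 to 49344) for Mbp, 1529 (831 to 3075) for Mal and 22.2 (16.5 to 29.5) for Cnp.

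**Figure D5:**
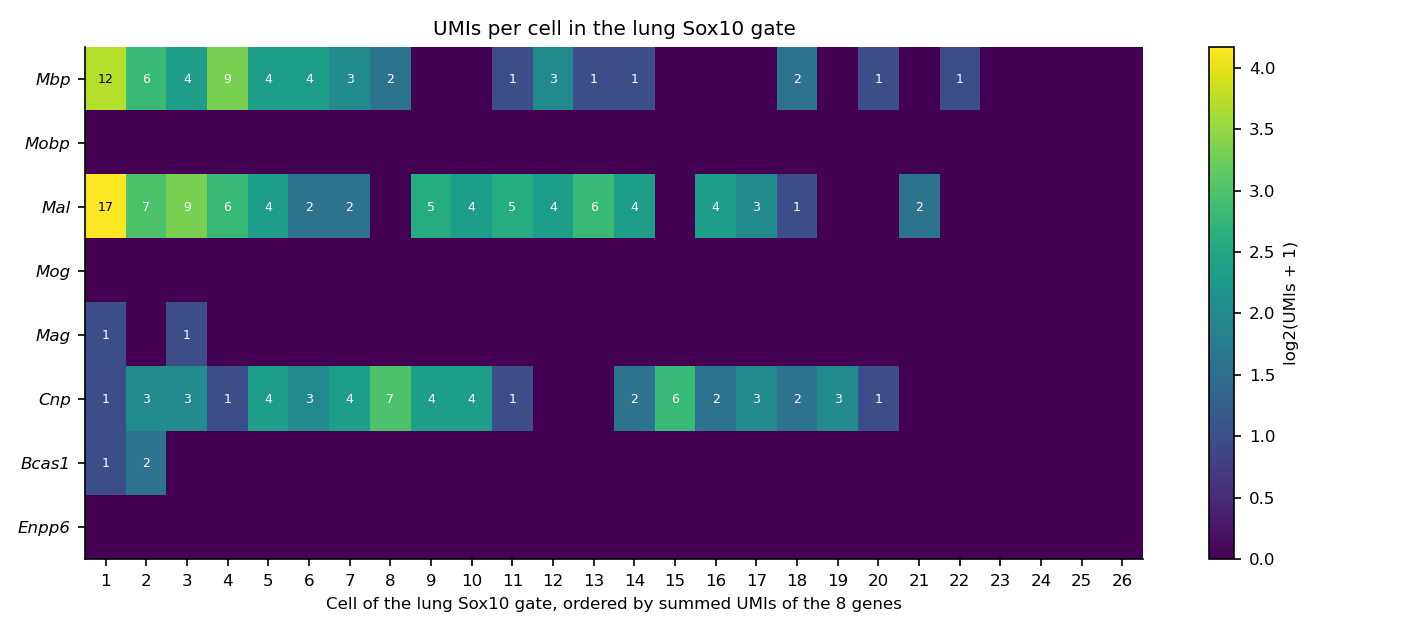
UMIs of the 8 myelin genes in each of the 26 Sox10-positive lung cells (horizontal axis), ordered by their summed UMIs, with colour on a log2(UMIs + 1) scale. Mal, Mbp and Cnp appear across most of the cells, up to 17, 12 and 7 UMIs, while Mobp, Mog and Enpp6 are at 0 in every one.

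Against the brain oligodendrocyte gate, all 8 members were at least 4-fold lower in the lung Sox10-positive cells, where 6.8% of 10004 genes were. Mog, Mag and Mobp defined the brain gate, and Mobp, Mog, Mag, Bcas1 and Enpp6 had enough UMIs only through it, so that the count says little of these. Mal was 7.81-fold (6.30 to 9.79), Cnp 10.4-fold (7.96 to 13.9), Mbp 11.8-fold (9.02 to 15.7), Bcas1 70.9-fold and Mag 138-fold lower, and against the limit of 3 counts over the group Mobp was at least 57.0-fold, Mog at least 59.6-fold and Enpp6 at least 33.0-fold lower. Set against OPCs instead, Mal was 118-fold (39.1 to 585) higher in the lung cells, Mbp 1.82-fold (1.30 to 2.52) higher and Cnp at 0.741 (0.544 to 0.993), while Bcas1 was 34.9-fold (11.9 to 169.9) lower. Mag rested on 2 and 3 UMIs, and Mobp, Mog and Enpp6 had none in the lung cells. The libraries differ in tissue and preparation as well as cell type, and these cannot be told apart.

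Other lung cells differed among themselves in Mbp and Cnp. In the T cell gate (96 cells, median 1754 UMIs, with the thymocyte genes Rag1 and Dntt at 995 and 720 CPM) 13 Mbp UMIs in 12 cells gave 51.7 (27.6 to 88.5), 749-fold (170 to 6841) above the endothelial and mesenchymal cells together (a pool formed after the values had been seen), and Cnp was 123 (83.8 to 175), 6.82-fold above them. Mbp is transcribed also from an upstream start used in blood cells, whose products are known as golli proteins, and 3′ counting does not separate these transcripts. Mal, whose name stands for myelin and lymphocyte protein, was found in 0 of these 96 cells, which allows up to 11.9 CPM, and Mobp, Mog, Mag, Bcas1 and Enpp6 were likewise at 0. In the myeloid gate 8 of 14 cells had an Mbp UMI (101 CPM). The 560 lung endothelial cells had 0 Mbp UMIs, but their Cnp was 43.9 against 14.9 in mesenchymal cells (2.94-fold, 2.40 to 3.58) and their Enpp6 was 5.09 against 0.465 (10.96-fold, 4.87 to 25.4). Bcas1 was 0.955 against 4.41, Mal 1.27 against 0.310 on 4 and 8 UMIs, and Mog and Mag were found as 1 UMI each and Mobp as 0 in these endothelial cells.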

How the data were processed

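The deposited tables hold UMI counts per gene and cell barcode for 1 brain and 1 lung library (n = 1 each). Per the labels and the methods of the study, the authors used bcl2fastq 2.19.1.403, UMI-tools (1.0.0 in the submitters' processing notes), STAR 2.7.1a and featureCounts 1.6.4 on mm10; the strand setting is not given in the sources used here. Barcodes with more than 200 and fewer than 4000 genes and under 40% mitochondrial UMIs were kept, without doublet removal. Scrublet (through scanpy 1.11.5, expected rate 0.06) marked 44 brain (1.06%) and 74 lung (1.32%) cells and was used as an alternative. Counts were summed per gate and given as CPM with exact Poisson 95% intervals, and ratios have exact conditional binomial intervals. Shares of cells have Clopper-Pearson intervals. A gene counted as higher or lower at 4-fold, among genes with at least 10 UMIs over both groups, and a group at 0 was set to 3 counts. Expected shares at 1000 UMIs left out shallower cells. No test between groups was possible. The genes, gates and lists were chosen with earlier results of these data known; the rule was to name the 8 members in the comparisons, with up to 4 genes of highest level per list and the 3 genes of highest correlation per member. Promoters run from 250 bases before to 50 after a RefSeq start, and the printed stretches end before the first annotated exon. Ugt8a, on the lipid list, was not analysed here. Python 3.11.15, numpy 2.4.6, scipy 1.17.1, pandas 2.3.3 and matplotlib 3.10.9 were used, and the scripts were tested on simulated data. Some items are not reported here.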

Additional observations from a re-analysis of the deposited data

How the results depend on the processing

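No paired analysis was possible because each tissue has 1 library, and no replicate could be left out. The counts of members past 4-fold stayed within 1.5 times under each alternative run, at 7 in the oligodendrocyte gate over OPCs (6 with the gate of non-member genes) and at 5 in lung Sox10-positive cells over other lung cells (4 with a Sox10 threshold of 2 UMIs). The summed oligodendrocyte over OPC ratio of 12.6 was 13.5 with no upper limit on genes, 16.2 with median-of-ratios scaling, 10.4 and 14.4 with the oligodendrocyte gate at 2 and 5 UMIs, 18.5 with the non-member gate and 19.5 with the OPC gate at 4 UMIs. The reference over oligodendrocyte ratio of 0.0132 was 0.0107, 0.0117, 0.0156, 0.0123 and 0.0102 under the first 5 of these, 0.0127 with mitochondrial shares under 10%, 0.0195 as a mean of single cells and 0.0111 without cells that also passed a reference gate. The Bcas1 ratio of Gpr17 to oligodendrocyte gate, 2.21, was 2.02, 1.76, 2.49, 1.97 and 14.2 under those same 5, 2.54 as a mean of single cells and 1.72 without cells of a reference gate. For Enpp6 the ratio of 0.739 was 0.589 with median-of-ratios scaling and 0.574 without cells of a reference gate, and it reversed to 14.3 with the non-member gate. That alternative also enlarged the Gpr17 gate from 70 to 121 cells, since cells of the former oligodendrocyte gate can enter it. The summed lung ratio of 49.96 was 40.4 with no upper limit on genes and 42.3 with median-of-ratios scaling. T cell Mbp ran from 36.4 to 57.2 CPM and T cell Mal stayed at 0 in each alternative run for them. Of alternatives chosen after seeing the data, the mean of single cells gave 45.3 for endothelial Mal over other reference cells and 0.126 for Cnp in ungated Sox10-positive cells over the Gpr17 gate. Depth limits the OPC and Gpr17 gate values of Mal, Mog and Mag and the lung values of Mag and Bcas1, which rest on few UMIs.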
